A study of Mus musculus with 36 samples.

Results

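Expression of 10 genes of the FGF-ERK pathway was followed through the BMP4 induced primed to naïve transition (BiPNT) of mouse cells. The genes were chosen by name: the ligand *Fgf4*, the receptor *Fgfr1*, the ETS transcription factors *Etv4* and *Etv5*, the feedback inhibitors *Spry1*, *Spry2*, *Spry4* and *Spred1*, and the phosphatases *Dusp4* and *Dusp6*. They are 10 of the 50600 genes listed for the sorted Day 3 cells and 10 of the 29267 listed for the other libraries. Bulk RNA-seq gave 11 libraries in 3 experiments, and levels are given as TPM, an RNA abundance scaled by gene length and library size.

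The first experiment held 2 libraries of c-Kit+ and 2 of c-Kit- cells, sorted by the surface receptor c-Kit at Day 3. The second held 3 libraries of epiblast stem cells (EpiSCs), the primed starting cells, and 2 of sorted BV+SC+ cells at Day 6, which carry the Blimp1-mVenus and Stella-ECFP reporters and are labelled as primordial germ cell-like cells. The third held 1 library of Day 3 cells with and 1 without SGC0946, an inhibitor of the H3K79 methyltransferase DOT1L. EpiSCs were kept with bFGF at 15 ng/ml, Activin A at 20 ng/ml and the tankyrase inhibitor XAV939. A single protocol text covers the EpiSC, BV+SC+ and SGC0946 libraries, in which stage 1 lasts until Day 3 in a medium holding bFGF at 10 ng/ml, LIF, CHIR99021, LiCl, vitamin C, BMP4, the DOT1L inhibitor EPZ5676 and the EZH2 inhibitor EPZ6438. Whether EPZ5676 was present in the SGC0946 experiment was not given in its labels, which also call both of its Day 3 libraries epiblast stem cells. The study itself describes these Day 3 samples as with or without DOT1L inhibitor, and names SGC0946 as that inhibitor. Stage 2 of that protocol is N2B27 with vitamin C and 2i, the MEK inhibitor PD0325901 at 1 μM and the GSK3 inhibitor CHIR99021 at 3 μM. BV+SC+ cells came from EpiSCs carrying both reporters, and whether the EpiSC libraries carried them was not given. The labels of the sorted cells name a stage 1 and a stage 2 medium without their contents, and the study's methods give the stage 1 medium with either EPZ5676 or SGC0946 as DOT1L inhibitor.

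The 2 BV+SC+ libraries carry different medium names in their descriptions, 2iJi for replicate 1 and GK15 for replicate 2. The protocol text gives 2i for BV+SC+ cells without naming a library, whereas the study describes GK15, alone or with BMP4, SCF, EGF and LIF, as another stage 2 condition and lists no MEK inhibitor for it. The study also tried a JAK inhibitor in stage 2. Neither text is tied to a library, and the full contents of the 2iJi and GK15 media are not given in the sources used here. Each name has 1 library, so medium and replicate cannot be told apart. The BV+SC+ group is therefore described library by library as well as by its test.

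FGF ligands bind FGF receptors, which activate RAS, RAF, MEK and then the kinases ERK1 and ERK2. ERK signalling raises transcription of ETS factors of the PEA3 group and of inhibitors that act back on the pathway. Sprouty and Spred proteins act on the steps above MEK, DUSP6 removes phosphate from ERK in the cytoplasm, and DUSP4 does so in the nucleus. In the mouse embryo FGF4 is made by the epiblast. ERK signalling supports the primed state and trophoblast growth, while its block by a MEK inhibitor is a standard part of naïve stem cell media.

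ETS factors bind DNA at a GGAA core. RefSeq (GRCm38.p6) gave start sites for 6 of the 10 genes, and the 250 bases before the start are shown for 4 whose values the comparisons turn on, to set the ETS-like letters of targets beside each other. Capitals mark CGGAA or its reverse complement TTCCG, searched on both strands. *Dusp6* held 3 matches (chr10:99262981-99263230, + strand) and *Spred1* held 1 (chr2:117120821-117121070, + strand). *Spry2* (chr14:105896820-105897069, - strand) and the upstream start of *Etv5* (chr16:22439571-22439820, - strand) held 0.
Dusp6: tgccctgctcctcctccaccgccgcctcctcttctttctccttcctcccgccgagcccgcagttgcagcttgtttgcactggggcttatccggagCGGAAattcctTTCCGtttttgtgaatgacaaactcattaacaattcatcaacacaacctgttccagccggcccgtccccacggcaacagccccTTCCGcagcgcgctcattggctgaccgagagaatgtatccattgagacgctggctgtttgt
Spred1: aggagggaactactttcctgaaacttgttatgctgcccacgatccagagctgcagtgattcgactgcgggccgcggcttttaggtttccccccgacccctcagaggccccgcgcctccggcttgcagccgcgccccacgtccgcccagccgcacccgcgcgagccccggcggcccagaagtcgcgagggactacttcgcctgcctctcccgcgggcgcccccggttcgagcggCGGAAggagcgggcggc
Spry2: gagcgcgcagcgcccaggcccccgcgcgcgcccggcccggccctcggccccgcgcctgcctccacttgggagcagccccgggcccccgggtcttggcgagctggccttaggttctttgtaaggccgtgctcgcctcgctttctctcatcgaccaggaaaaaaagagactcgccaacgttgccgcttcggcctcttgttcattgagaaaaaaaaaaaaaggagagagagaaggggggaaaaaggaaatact
Etv5: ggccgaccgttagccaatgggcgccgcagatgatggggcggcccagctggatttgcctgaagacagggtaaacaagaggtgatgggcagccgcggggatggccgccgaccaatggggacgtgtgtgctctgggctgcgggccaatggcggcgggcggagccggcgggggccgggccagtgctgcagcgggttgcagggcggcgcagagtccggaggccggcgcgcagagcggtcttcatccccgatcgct
Of 32851 RefSeq promoters of this length, with no chromosome left out, 25.2% held a match. Of the other 2 genes whose start sites were used, *Fgf4* and *Spry1*, neither did. The longer string CCGGAA, searched in the same way, was found in none of these 6 genes and in 12.0% of the 32851 promoters. A match is a description of letters, and a window without these letters says nothing of a factor's binding.

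Depth was 1726038 to 1841442 expected counts in the sorted cells, 2444211 to 3070115 in EpiSCs, 14778809 and 18099059 in BV+SC+ cells, and 4776143 and 4577685 with and without SGC0946. *Kit* itself was at 99.6 and 96.0 TPM in c-Kit+ cells and at 4.81 and 3.24 in c-Kit- cells. BV+SC+ cells held 1650 to 1694 summed TPM of 6 germ cell markers, against 1.28 to 3.00 in EpiSCs. Most of that sum was fixed by the sort, since *Prdm1* (Blimp1) and *Dppa3* (Stella) are the reporter genes, with *Dppa3* at 1162 (2iJi) and 1202 (GK15) TPM. Of the markers not sorted on, *Tfap2c* was at 168 and 213 TPM against 0.68 to 0.86 in EpiSCs, and *Prdm14*, *Nanos3* and *Dnd1* were higher as well. EpiSCs held 1160 to 1216 summed TPM of 5 primed epiblast markers, against 37.5 (2iJi) and 108 (GK15) in BV+SC+ cells. Of the 5, *Foxa2* was at 0 in every EpiSC library, and *Dnmt3b* alone was at 679 to 731 TPM there. The markers went against the epiblast stem cell label of the Day 3 SGC0946 libraries, which held 47.0 and 43.5 summed TPM of the primed epiblast markers with and without SGC0946, and 1152 and 1487 of 8 trophoblast markers against 21.1 to 33.1 in EpiSCs. These libraries are called Day 3 cells here, after their titles. *Etv5* shares 42.8% of its longest transcript with *Gm4798*, which had 0 counts in the sorted cells. *Spry1* shares 20.8% with the antisense *Gm42922*, which had at most 2.67 counts there, and *Fgfr1* shares 3.3% with *Gm16159*, which had at most 1 count. No counts were listed for *Gm4798* and *Gm42922* in the other libraries, so *Etv5* and *Spry1* could not be checked in this way there.

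c-Kit+ and c-Kit- cells were compared to see how the 2 populations that part during stage 1 differ. At Day 3, 8 of the 9 testable genes were higher in c-Kit+ than in c-Kit- cells and none was lower. Both ETS factors, all 4 Sprouty and Spred genes and both phosphatases were higher, from 3.27-fold for *Spry1* to 30.4-fold for *Etv5*. The receptor *Fgfr1* did not pass the test. A gene was called where the Benjamini-Hochberg adjusted p of edgeR's quasi-likelihood test over all 11018 genes tested was under 0.05 and the fold was over 2. By this rule 22.9% of all genes tested were called, 9.98% as higher and 12.9% as lower. TPM of the groups did not overlap for these 8 genes, where 28.5% of all genes tested were higher without overlap. The median log2 fold change of the 9 genes was 2.88, against 0.03 over all genes tested. Among 11018 log2 fold changes, ordered from the highest, *Etv5* was number 53, *Spry4* number 54 and *Spry2* number 59.

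**Figure D1:**
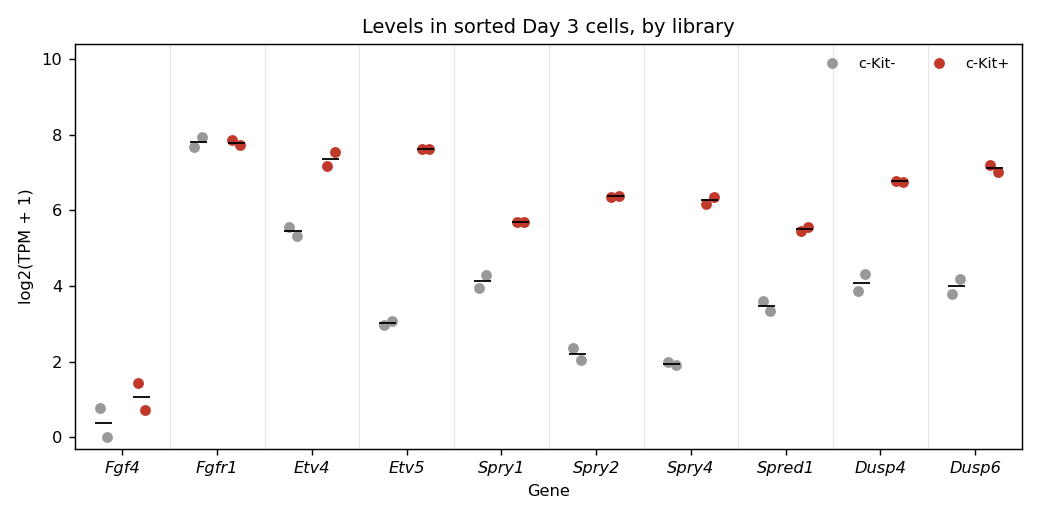
Levels of the 10 genes as log2(TPM + 1) in the 2 c-Kit- (grey) and 2 c-Kit+ (red) libraries of Day 3. Each point is a library and the line is the mean of the 2; for 8 genes both red points lie above both grey points, while those of Fgfr1 and Fgf4 overlap in range.

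Among the ETS factors, *Etv5* (chr16:22381309-22439719 in GRCm38) was at 6.88 and 7.37 TPM in the c-Kit- libraries and at 197 in both c-Kit+ libraries. The c-Kit+ level was thus reached in both libraries with almost no spread. Its log2 fold change was 4.93 ± 0.14 (standard error here and below; n = 2 and 2; edgeR adjusted p = 1.45e-07). *Etv4* (chr11:101769742-101785371), its closest relative here, had a higher level in c-Kit- cells, at 46.1 and 39.4 TPM, and was at 143 and 185 in c-Kit+ cells. The groups did not overlap, and its log2 fold change of 2.51 ± 0.14 (edgeR adjusted p = 2.56e-06) was smaller than that of *Etv5*. Its size depended on transcript length, and was 2.08 ± 0.20 with an offset for effective length. Within c-Kit- cells *Etv4* had the higher TPM of the pair in both libraries, and within c-Kit+ cells *Etv5* did.

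The Sprouty genes code for membrane-associated inhibitors of receptor signalling. *Spry2* was at 4.11 and 3.12 TPM in c-Kit- cells and at 81.4 and 82.8 in c-Kit+ cells (log2 fold change 4.62 ± 0.26, edgeR adjusted p = 2.43e-06). The c-Kit- values rest on 8 and 6 counts. *Spry4* was at 2.97 and 2.78 TPM in c-Kit- cells and at 71.6 and 80.8 in c-Kit+ cells (log2 fold change 4.86 ± 0.20, edgeR adjusted p = 5.82e-07). *Spry1* differed least of the 3, with 14.6 and 18.7 TPM against 50.8 and 50.7 (log2 fold change 1.71 ± 0.21, edgeR adjusted p = 0.000202). *Spred1*, an inhibitor of RAF activation, was at 11.1 and 9.14 TPM against 42.6 and 46.4 (log2 fold change 2.26 ± 0.17, edgeR adjusted p = 1.03e-05). In c-Kit- cells *Spry1* had the highest TPM of the 3 Sprouty genes, and in c-Kit+ cells the lowest.

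Of the phosphatases, *Dusp6* (chr10:99263231-99267489), the cytoplasmic one, was at 12.9 and 17.4 TPM in c-Kit- cells and at 146 and 129 in c-Kit+ cells. The difference on the log2 scale was 3.29 ± 0.16 (edgeR adjusted p = 1.23e-06). The nuclear *Dusp4* (chr8:34807297-34819894) was at 13.6 and 18.8 TPM against 109 and 107 (log2 fold change 2.88 ± 0.18, edgeR adjusted p = 4.39e-06). Neither gene's groups overlapped, and both phosphatases had a similar level in c-Kit- cells.

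The receptor did not pass the test and the ligand could not be tested. *Fgfr1* (chr8:25513654-25575718) was at 203 and 246 TPM in c-Kit- cells and at 231 and 211 in c-Kit+ cells. The groups overlapped, and its log2 fold change was 0.12 ± 0.10 (edgeR adjusted p = 0.354). *Fgf4* had 2 and 0 counts in c-Kit- cells and 5 and 2 in c-Kit+ cells, too few to be tested, so its level was near the limit of detection in both populations at Day 3.

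The sort also separated cells by their markers. Summed TPM of the 3 pluripotency markers *Pou5f1*, *Sox2* and *Nanog* was 74.4 and 64.3 in c-Kit- and 1567 and 1631 in c-Kit+ libraries. *Sox2* was at 0 in 1 c-Kit- library and *Nanog* in the other. Summed TPM of 8 trophoblast markers was 4861 and 4335 in c-Kit- and 913 and 666 in c-Kit+ libraries, with none of the 8 at 0 in any. Their part in the differences of the 8 genes was not tested, and in bulk libraries fewer cells of a type and less RNA per cell cannot be told apart.

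Other genes of the pathway, from lists chosen for their role, were called in both directions. No FGF ligand of the 17 listed had counts enough for a test, neither of the 2 other receptor genes tested was called, and of 20 genes of the RAS-ERK cascade 2 were lower and none higher. Those 2 were the scaffold *Ksr1*, with a log2 fold change of -1.60 ± 0.24, and the adaptor *Gab1*, with -1.14 ± 0.15 (edgeR adjusted p = 0.000689 and 0.000387). Of 11 other feedback inhibitors 2 were higher and 2 were lower. *Il17rd* (Sef), a membrane inhibitor of FGF signalling, was at 24.5 and 29.4 TPM in c-Kit+ and 4.81 and 4.87 in c-Kit- cells (log2 fold change 2.61 ± 0.19, edgeR adjusted p = 9.2e-06). *Spred2*, a relative of *Spred1*, was higher by 2.24 ± 0.17 on the log2 scale (edgeR adjusted p = 1.26e-05). The ERK phosphatase *Dusp9* went the other way from *Dusp4* and *Dusp6*, at 1301 and 1124 TPM in c-Kit- cells and 279 and 238 in c-Kit+ cells. The difference on the log2 scale was -2.09 ± 0.10 (edgeR adjusted p = 1.12e-06). *Errfi1*, an inhibitor of EGF receptors, was also lower, with -1.49 ± 0.14 (edgeR adjusted p = 4.78e-05).

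Of 12 other ERK-responsive genes 6 were higher and 2 lower in c-Kit+ than in c-Kit- cells. The immediate early gene *Egr1* was at 422 and 373 TPM against 50.4 and 57.3 (log2 fold change 3.02 ± 0.12, edgeR adjusted p = 5.82e-07). *Egr2* was higher by 3.40 ± 0.41 and the receptor *Epha4* by 3.22 ± 0.32 on the log2 scale (edgeR adjusted p = 0.000204 and 6.1e-05). *Etv1*, the third PEA3 factor, was at 10.7 and 6.67 TPM in c-Kit+ cells and at 0 and 3.00 in c-Kit- cells (edgeR adjusted p = 0.00255), where it had at most 3 counts a library. Not every such gene was higher. *Myc* fell by 1.91 ± 0.22 and the AP-1 gene *Fosl1* fell by 1.78 ± 0.38 on the log2 scale (edgeR adjusted p = 0.00013 and 0.00491).

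**Figure D2:**
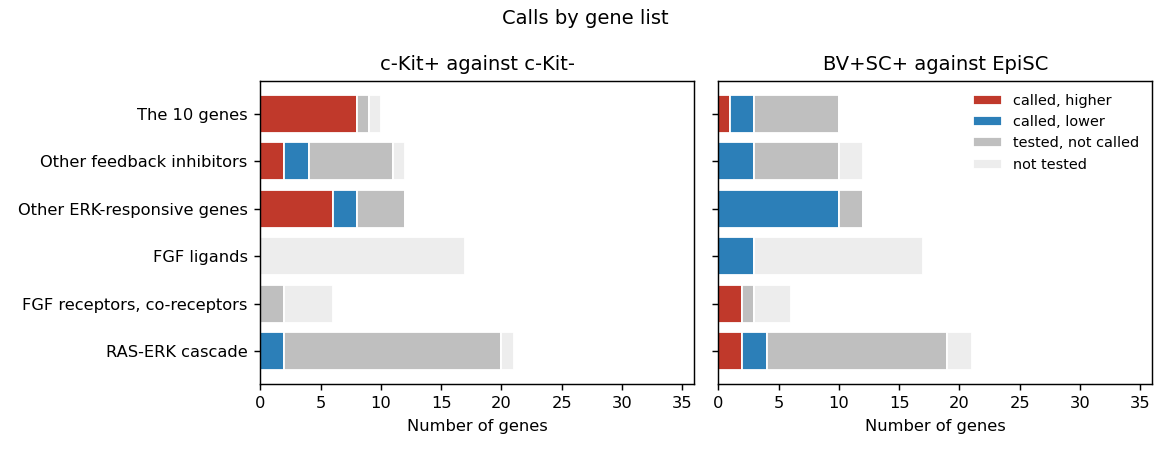
Number of genes in each list called higher (red) or lower (blue), tested and not called (grey), or not tested (pale; too few counts or not listed), in c-Kit+ against c-Kit- cells (left) and BV+SC+ cells against EpiSCs (right). Among the 10 genes, 8 were called higher on the left, and 1 higher and 2 lower on the right.

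BV+SC+ cells were then compared with EpiSCs, the beginning and the germ cell-like stage of the process. The 10 genes did not move as a block: *Dusp6* and *Spred1* fell, *Dusp4* rose, and the other 7 were not called. All 10 could be tested. Of 11792 genes tested, 34.0% were called, 16.8% as higher and 17.2% as lower, so 2 of 10 lower and 1 of 10 higher is close to the background. The median log2 fold change of the 10 genes was -0.94, against 0.05 over all genes tested. TPM of the groups did not overlap for 7 genes that were lower and 1 that was higher, where 36.3% and 34.0% of all genes tested were so. The BV+SC+ libraries differed from each other more than other replicates did, with a chi-square over its degrees of freedom of 45.3 against 2.01 to 4.46 for the other pairs, at a greater depth that raises this statistic, and the spread enters the test. The part of the germ cell and primed epiblast markers, which differed between the groups as given above, was not tested.

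**Figure D3:**
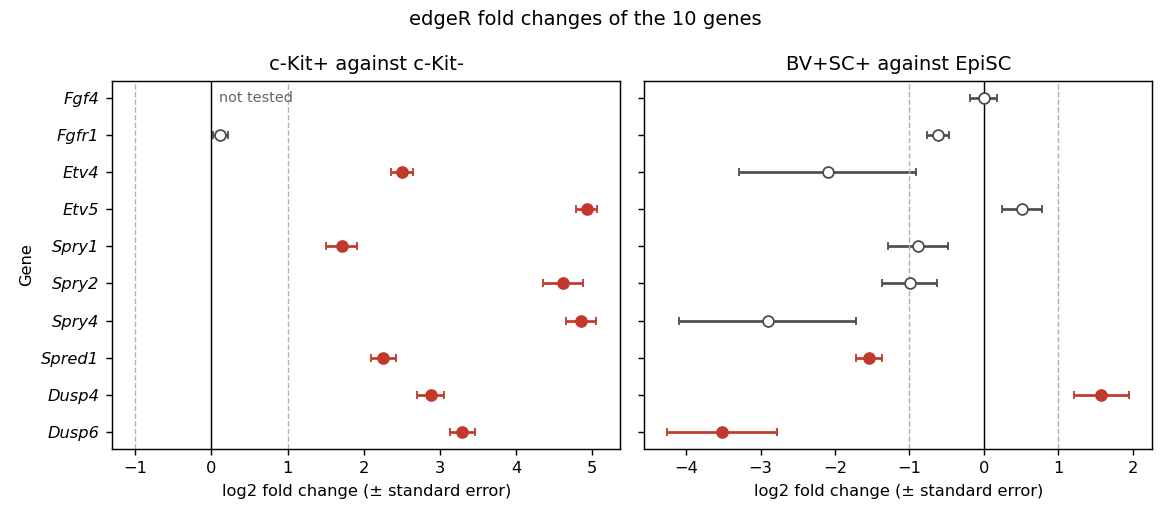
edgeR log2 fold changes with standard errors for c-Kit+ against c-Kit- cells (left, n = 2 and 2) and BV+SC+ cells against EpiSCs (right, n = 2 and 3). Filled red points were called, open points were not, and dashed lines mark a 2-fold change; 8 filled points lie above 0 on the left, while on the right Dusp6 and Spred1 lie below 0 and Dusp4 above.

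*Dusp6* was at 444, 204 and 143 TPM in EpiSCs and at 7.49 (2iJi) and 35.8 (GK15) in BV+SC+ cells. Both BV+SC+ libraries lay below every EpiSC library. Its log2 fold change was -3.52 ± 0.74 (n = 2 and 3; edgeR adjusted p = 0.00462). *Spred1* was at 43.2, 33.6 and 41.3 TPM in EpiSCs and at 11.5 and 14.1 in BV+SC+ cells (log2 fold change -1.55 ± 0.18, edgeR adjusted p = 0.000255). It was the gene with the closest agreement of the BV+SC+ libraries among those called. *Dusp4* moved the other way, from 28.4, 19.8 and 16.6 TPM in EpiSCs to 36.6 (2iJi) and 86.0 (GK15) (log2 fold change 1.58 ± 0.38, edgeR adjusted p = 0.00805). Without the GK15 library its log2 fold change was 0.80 ± 0.22 and no longer past 2-fold. The 2 ERK phosphatases thus differed in direction, in contrast to the sorted Day 3 cells.

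Both ETS factors differed widely between the BV+SC+ libraries. *Etv4* was at 117, 105 and 138 TPM in EpiSCs, at 59.5 in the GK15 library and at 0.05 in the 2iJi library, where it had 1 count. Both values lay below every EpiSC value, but its log2 fold change of -2.10 ± 1.19 did not pass (edgeR adjusted p = 0.167). *Etv5* was at 205 to 206 TPM in all EpiSC libraries, at 185 in the 2iJi library and at 373 in the GK15 library, on either side of EpiSCs (log2 fold change 0.51 ± 0.27, edgeR adjusted p = 0.14). The library with 1 count of *Etv4* thus had an *Etv5* level near that of EpiSCs.

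*Spry4* was at 43.2, 14.6 and 15.2 TPM in EpiSCs, at 6.0 in the GK15 library and at 0 counts in the 2iJi library, which at its depth allows up to 3 counts, or 0.203 CPM (counts scaled to library size). Its log2 fold change was -2.91 ± 1.19 (edgeR adjusted p = 0.0692). *Spry2* was at 98.2, 52.1 and 40.4 TPM in EpiSCs and at 24.2 and 36.5 in BV+SC+ cells (log2 fold change -0.997 ± 0.374, edgeR adjusted p = 0.0514). *Spry1* was at 24.7, 16.4 and 16.0 TPM in EpiSCs and at 5.85 and 13.6 in BV+SC+ cells (log2 fold change -0.89 ± 0.40, edgeR adjusted p = 0.0936). For each of the 3 Sprouty genes both BV+SC+ libraries lay below the EpiSC libraries without a call.

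The ligand had the smallest log2 fold change of the 10 genes. *Fgf4* was at 18.3, 21.4 and 17.5 TPM in EpiSCs and at 18.4 and 17.7 in BV+SC+ cells, with a log2 fold change of 0.00 ± 0.18 (edgeR adjusted p = 0.99). *Fgfr1* was at 135, 132 and 122 TPM in EpiSCs and at 94.6 and 65.4 in BV+SC+ cells. Its log2 fold change of -0.62 ± 0.15 passed the test on p (edgeR adjusted p = 0.00974) but was under 2-fold, and 56.0% of genes passed at any fold.

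EpiSC replicate 1 stood apart at several of these genes. It was the highest EpiSC library for 7 of the 10 genes, against 31.6% of 12547 genes that averaged 1 TPM or more in EpiSCs. Over the mean of replicates 2 and 3 its level was 2.89 times for *Spry4*, 2.57 for *Dusp6* and 2.12 for *Spry2*, but 1.00 for *Etv5* and 0.96 for *Etv4*. Immediate early genes were higher in it too, with *Fos* at 654 TPM against 105 and 98.7. The naïve markers did not move together. *Klf2* was at 48.9 against 6.31 and 6.30, *Klf4* at 40.4 against 7.55 and 4.17, and *Klf5* at 24.4 against 14.1 and 14.2. *Esrrb* was at 0.72 against 0.60 and 1.28, *Tfcp2l1* at 1.08 against 0.79 and 0.32, and *Zfp42* and *Tbx3* were at most 0.16 in all EpiSC libraries. The part of replicate 1 in the comparison was not tested. Without it *Dusp6* (-2.90 ± 0.67, edgeR adjusted p = 0.015), *Spred1* (-1.46 ± 0.20, adjusted p = 0.00223) and *Dusp4* (1.84 ± 0.43, adjusted p = 0.0153) were still called, and no other of the 10 genes was.

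Each BV+SC+ library was also set against the 3 EpiSC libraries alone, with the lone library assumed to vary as the EpiSC libraries do. The 2iJi library had 6 of the 10 genes called lower and none higher, where 17.5% and 17.8% of 12205 genes were called. The 6 were *Etv4*, *Spry4*, *Dusp6*, *Spred1*, *Spry1* and *Spry2*. For *Dusp6* the log2 fold change was -5.09 ± 0.60 and for *Spry2* -1.36 ± 0.35 (edgeR adjusted p = 1.68e-05 and 0.00494). The GK15 library had 4 called lower and 1 higher, where 19.6% and 18.5% of 12196 genes were called. Those lower were *Dusp6* (-2.79 ± 0.50), *Spry4* (-1.94 ± 0.48), *Spred1* (-1.39 ± 0.16) and *Etv4* (-1.11 ± 0.13), with edgeR adjusted p = 0.000398, 0.00391, 1.28e-05 and 1.79e-05, and *Dusp4* was the 1 called higher. *Etv5* in the GK15 library rose by 0.96 ± 0.07 on the log2 scale, just under 2-fold (edgeR adjusted p = 3.08e-07). The 2 fits share the EpiSC libraries.

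Most other ERK-responsive genes were lower in BV+SC+ cells: 10 of 12 were called lower and none higher, with a median log2 fold change of -3.26. *Egr1* was at 350, 83.7 and 168 TPM in EpiSCs and at 3.12 and 3.49 in BV+SC+ cells (log2 fold change -5.78 ± 0.63, edgeR adjusted p = 0.000207). The cyclin *Ccnd1* was at 151, 129 and 143 TPM against 2.59 and 2.99 (log2 fold change -5.58 ± 0.17, edgeR adjusted p = 1.42e-06). *Fosl1* and *Egr2* had at most 3 counts in each BV+SC+ library. Among other feedback inhibitors 3 of 10 were lower. *Spred3* was at 30.8, 23.9 and 23.0 TPM against 0.34 and 0.46 (log2 fold change -5.88 ± 0.31, edgeR adjusted p = 9.34e-06), *Dusp1* fell by 1.69 ± 0.62 and the RAS GTPase activator *Nf1* fell by 1.28 ± 0.36 on the log2 scale (adjusted p = 0.0478 and 0.016). The call of *Dusp1* rests on an EpiSC level that ranged from 60.2 to 279 TPM.

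The FGF ligands that mark the primed epiblast fell while *Fgf4* did not pass the test. All 3 that could be tested were lower. *Fgf5* was at 109, 89.3 and 89.2 TPM in EpiSCs and at 0.45 and 4.09 in BV+SC+ cells (log2 fold change -5.26 ± 0.65, edgeR adjusted p = 0.000354). *Fgf15* was at 151, 103 and 120 TPM against 0.57 and 1.00 (log2 fold change -7.17 ± 0.32, edgeR adjusted p = 5.36e-06). *Fgf8* was at 31.9, 26.3 and 37.8 TPM against 10.7 and 2.69 (log2 fold change -2.64 ± 0.61, edgeR adjusted p = 0.00688). Of 3 other receptor genes 2 were higher, among them *Fgfr2* at 49.8 and 59.0 TPM against 8.53, 2.29 and 2.53 (log2 fold change 3.68 ± 0.38, edgeR adjusted p = 0.000153). In the cascade 2 of 19 were higher and 2 lower, including the adaptor *Frs3* with a log2 fold change of 1.19 ± 0.37, the adaptor *Shc1* with -1.99 ± 0.14 and *Hras* with -1.33 ± 0.14 (edgeR adjusted p = 0.0245, 2.73e-05 and 0.000197). Over the 5 lists 4 genes were called higher and 18 lower. Those higher were 1 when any 1 of the EpiSC libraries was left out and 2 without BV+SC+ replicate 2, and those lower were 14 without EpiSC replicate 1.

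**Figure D4:**
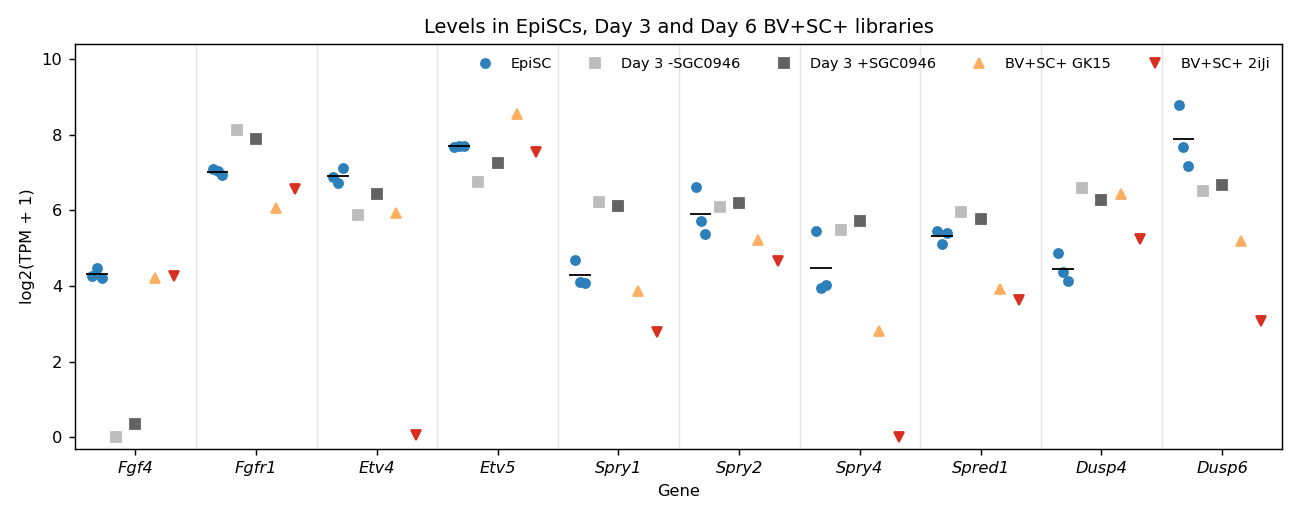
Levels of the 10 genes as log2(TPM + 1) in 3 EpiSC libraries (blue, line at the mean), the Day 3 libraries without (light grey) and with (dark grey) SGC0946, and the BV+SC+ libraries named GK15 (orange) and 2iJi (red). Etv4 and Spry4 sit near 0 in the 2iJi library only, and Fgf4 sits near 0 in the Day 3 libraries only.

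The 2 BV+SC+ libraries were compared directly, as 1 library against 1 with no replicate check. Genes with at least 10 counts in 1 of the 2 libraries were kept, and intervals are exact 95% intervals of the ratio of 2 counts, which cover counting error only. In the 2iJi library 6 of the 10 genes were lower by more than 2-fold and none was higher. Over 14386 genes, 18.7% differed by more than 2-fold, with 8.57% lower and 10.1% higher. The median log2 ratio of the 10 genes was -1.17, against 0.01 over all genes. With 0.5 counts added to both libraries, *Etv4* had the lowest log2 ratio of all 14386 genes and *Spry4* the next lowest.

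*Etv4* had 1 count in the 2iJi library and 900 in the GK15 library, a log2 ratio of -9.00 (interval -14.89 to -7.10). *Spry4* had 0 and 280 counts and was at least 79.7-fold lower, set against 3 counts in the 2iJi library. These were the only 2 of the 10 genes with fewer than 10 counts in either library. *Dusp6* had 171 and 981 counts, a log2 ratio of -2.29 (-2.54 to -2.06). *Dusp4* had 818 and 2306 (-1.27, -1.38 to -1.15), and *Spry1* had 118 and 327 (-1.24, -1.56 to -0.94). *Etv5*, with 5875 and 14826 counts, had a log2 ratio of -1.11 (-1.15 to -1.06).

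The others lay within 2-fold. *Spry2* had a log2 ratio of -0.63 (-0.81 to -0.45) and *Spred1* of -0.31 (-0.47 to -0.16). *Fgfr1* was the 1 gene clearly on the other side, with 0.48 (0.41 to 0.56). *Fgf4* had 458 and 529 counts and a log2 ratio of 0.02 (-0.16 to 0.20). Of the 10 intervals, that of the ligand was the 1 that held 0.

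Other pathway genes differed in both directions. *Etv1*, the third PEA3 factor, had 40 counts in the 2iJi library and 378 in the GK15 library (log2 ratio -3.00, -3.52 to -2.54). The early response gene *Ier3* had 73 and 373 (-2.12, -2.51 to -1.76). Of 10 other ERK-responsive genes, 2 were lower and 1 was higher past 2-fold, and of 10 other feedback inhibitors 1, *Nf1*, was higher (1.26, 1.02 to 1.51) and none lower. *Egr1*, at 3.12 and 3.49 TPM, was low in both libraries. Among the ligands *Fgf5* (-3.16, -4.40 to -2.25) and *Fgf1* (-2.09, -3.29 to -1.16) were lower and *Fgf8* higher (2.01, 1.14 to 3.06). *Gab1* was lower (-1.37, -1.56 to -1.19), *Fgfr3* lower (-1.85, -2.22 to -1.51) and the decoy receptor *Fgfrl1* higher (1.40, 1.01 to 1.82). The sums of 2 kinds of marker differed as well. Summed TPM of 8 trophoblast markers was 126 in the 2iJi and 41.4 in the GK15 library, and that of 5 primed epiblast markers was 37.5 and 108, among them *Otx2* at 4.29 and 47.5. The sums of 7 naïve markers (761 and 749) and 6 germ cell markers (1650 and 1694) were close, but most of the latter was fixed by the sort. Single markers of both kinds differed in part. *Nanos3* was at 43.4 and 21.5 TPM, *Klf4* at 2.85 and 9.73 and *Klf5* at 51.4 and 88.0. *Prdm14* was at 40.3 and 40.9 and *Esrrb* at 273 and 287. The part of any of these markers in the differences was not tested.

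**Figure D5:**
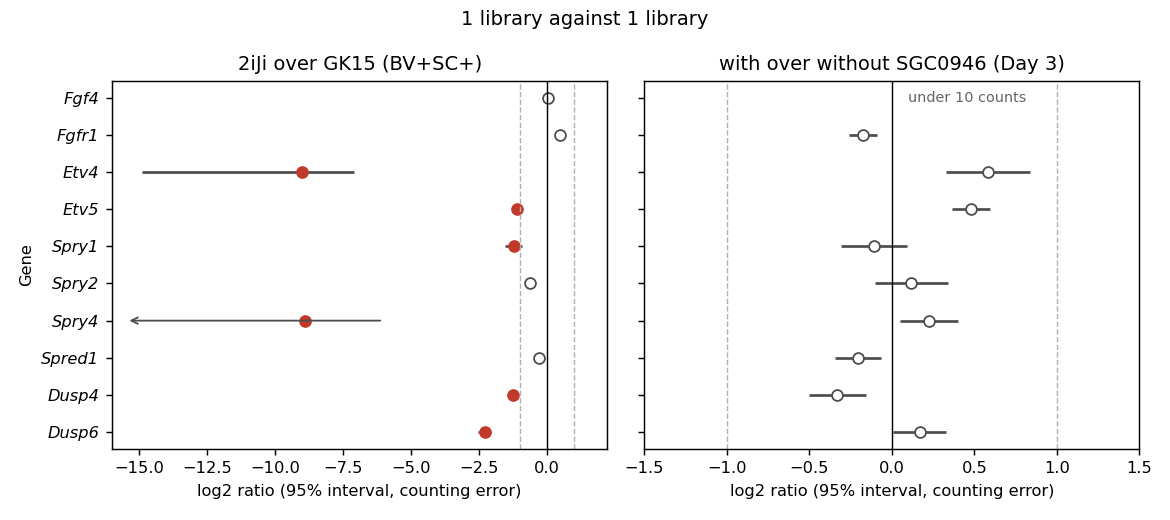
log2 ratios with exact 95% intervals for counting error, 2iJi over GK15 in BV+SC+ cells (left) and with over without SGC0946 at Day 3 (right), each 1 library against 1 and on axes of different range. Filled red points lie past 2-fold; the arrow marks Spry4, which had 0 counts in the 2iJi library, so that its point depends on the 0.5 counts added and its interval has no lower end.

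The Day 3 libraries with and without SGC0946 addressed whether DOT1L inhibition goes with a change in these genes. None of the 9 genes with enough counts differed by more than 2-fold, where 6.93% of 12531 genes did, 5.2% as higher and 1.73% as lower. The ETS factors had the largest ratios. *Etv4* was at 85.9 TPM with and 57.7 without SGC0946, a log2 ratio of 0.58 (0.33 to 0.84), and *Etv5* at 151 and 106, a log2 ratio of 0.48 (0.36 to 0.60). In the other direction lay *Dusp4*, at 75.9 and 95.3 TPM (-0.33, -0.51 to -0.16), *Spred1* (-0.21, -0.35 to -0.07) and *Fgfr1* (-0.18, -0.26 to -0.09). *Spry4* (0.22, 0.05 to 0.40) and *Dusp6* (0.17, 0.01 to 0.33) were slightly higher, and the intervals of *Spry2* and *Spry1* held 0. *Fgf4* had 2 counts with and 0 without SGC0946.

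These ratios came without replicates, so their size against the spread between cultures is unknown. Markers of other cell states differed too. Summed TPM with and without SGC0946 was 715 and 132 for the pluripotency markers, 206 and 71.1 for the germ cell markers, and 15.6 and 30.4 for 5 primitive endoderm markers. That of the 8 trophoblast markers was 1152 and 1487. Their part in the ratios was not tested. Of the listed pathway genes, 2 of 12 other ERK-responsive genes were higher past 2-fold, and none of the listed ligands, receptors, cascade genes or other feedback inhibitors with enough counts was past 2-fold in either direction. *Egr1* had 696 and 242 counts, a log2 ratio of 1.43 (1.22 to 1.65).

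Across the groups the genes had different orders of level. *Etv5* had its highest mean in BV+SC+ cells (279 ± 133 TPM, SD, n = 2), ahead of EpiSCs (206 ± 0.6, n = 3) and c-Kit+ cells (197 ± 0.3, n = 2), which the BV+SC+ spread does not separate, and its lowest in c-Kit- cells (7.13 ± 0.35, n = 2). *Dusp6* had its highest mean in EpiSCs (263 ± 159), whose lowest library (143 TPM) lay within the c-Kit+ values of 129 and 146, and its lowest in c-Kit- cells (15.1 ± 3.2), with BV+SC+ cells (21.6 ± 20.0) not separated from the latter. *Dusp4* was highest in c-Kit+ cells (108 ± 1), and was at 75.9 and 95.3 TPM in the Day 3 SGC0946 libraries. BV+SC+ cells (61.3 ± 34.9) ranged from 36.6 to 86.0, not separated from the SGC0946 libraries. It was lower in EpiSCs (21.6 ± 6.1) and c-Kit- cells (16.2 ± 3.7), whose ranges overlap. *Spry1* was at 68.6 and 73.2 TPM in the SGC0946 libraries and at 50.7 ± 0.1 in c-Kit+ cells, above EpiSCs (19.0 ± 4.9) and BV+SC+ cells (9.73 ± 5.49).

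*Fgf4* was the gene with 2 clear levels. It was at 17.5 to 21.4 TPM in all EpiSC and BV+SC+ libraries and at 0 to 1.73 TPM in all 6 Day 3 libraries, with at most 5 counts in any of them. *Fgfr1* was highest at Day 3, from 203 to 279 TPM in all 6 libraries, against 122 to 135 in EpiSCs and 65.4 to 94.6 in BV+SC+ cells. The sorted libraries were made with another kit and gene list than the rest, so levels set across them carry that difference, and no test was made across experiments.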

How the data were processed

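Bulk RNA-seq libraries of 11 samples were analysed. The authors aligned reads to a GENCODE transcriptome with Bowtie2 and estimated expression with RSEM. The deposited expected counts per gene are not normalized between libraries. The deposited TPM were computed by RSEM from expected counts and effective lengths. The submitters' processing notes give RSEM as version 1.3.1. Replicates were not pooled. Labels name ribosomal RNA depletion for the EpiSC, BV+SC+ and SGC0946 libraries, and the study's methods name an mRNA kit. Where nothing states that replicates came from separate cultures, p-values measure the spread between these libraries, which may be technical.

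Expected counts were rounded and tested with edgeR 4.0.16 in R 4.3.3 (filterByExpr, TMM, glmQLFit and glmQLFTest), in a model of the groups compared. Genes were called at a Benjamini-Hochberg adjusted p under 0.05 and a fold over 2. For 1 library against 1, the log2 ratio of TMM-scaled CPM was taken with 0.5 counts added to both libraries, for genes with at least 10 counts in 1 of them, with exact (Clopper-Pearson) 95% intervals. Intervals and floors (3 counts) cover counting error only. The steps were tested on simulated data with 200 changed genes and the same dispersion for every gene and library. The simulation held no pair of libraries as far apart as the BV+SC+ pair, so it does not show how the test behaves there. No replicate pair held identical values. Symbols and coordinates came from GENCODE M21 (GRCm38). Shared sequence (at least 75 bases at 98% identity) was searched with BLAST+ 2.17.0.

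The 10 genes, pathway lists and marker lists were chosen with earlier results of these data known. Of each list, up to 4 called genes per direction were named in a tested comparison (no overlap in TPM, mean TPM of at least 1, largest change first), and up to 3 per direction in a 1 against 1 comparison, with the interval past 2-fold. *Fos*, *Kit*, the naïve markers in each EpiSC library, and *Egr1* and single markers in the 2iJi and GK15 libraries, were added after their values were seen or as a check. Alternatives were DESeq2 1.42.0, RLE factors, other filters, an effective length offset, a replicate block, thinning to EpiSC depth, other call rules, other scalings and pseudocounts, and leaving out each replicate. Python 3.11.15 with NumPy 2.4.6, pandas 2.3.3, SciPy 1.17.1 and Matplotlib 3.10.9 was used. Samples of single-cell RNA-seq, ATAC-seq and ChIP-seq in the series were not used here.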

Additional observations from a re-analysis of the deposited data

How the results depend on the processing

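In c-Kit+ against c-Kit- cells, the 9 genes kept their direction and call under the 98 combinations of gene and alternative that gave a value. *Spry2* was not tested where every library needed 10 counts, which left 7 called higher, and 8 were called higher whichever replicate was left out. Over all genes, 706 were higher where every library needed 10 counts, and 2228 higher and 2346 lower at any fold. Of the pathway lists, 5 genes were higher where every library needed 10 counts and 15 lower at any fold.

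In BV+SC+ cells against EpiSCs, the number of the 10 genes called lower was 4 with no filter, where the median of all genes shifted to 0.29 (log2), and ranged from 2 to 6 leaving out each replicate, with 0 to 1 called higher. It was 2 with DESeq2 and 3 with BV+SC+ counts thinned to EpiSC depth, where *Spry4* was added (-2.97, edgeR adjusted p = 0.0188). Leaving out a BV+SC+ replicate left 1 library in that group, and the estimates moved. The log2 fold change of *Etv4* was -1.11 without replicate 1 and -10.31 without replicate 2, and that of *Spry4* was -1.94 and -11.49. Over all genes 1164 were higher where every library needed 10 counts, and 3486 higher and 3122 lower at any fold. Of the pathway lists, 2 genes were higher with at least 10 counts in every library, 2 with the effective length offset, 8 at any fold, and 1 to 4 leaving out each replicate. The log2 fold change of *Etv5* turned to -0.155 without BV+SC+ replicate 2, and ranged from -0.155 to 0.964 leaving out each replicate. The sign of *Fgf4*, near 0 throughout, turned to 0.033 where every library needed 10 counts, 0.004 with the length offset and 0.04 with no filter, and ranged from -0.068 to 0.088 leaving out each replicate. The cause of these shifts was not tested.

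Same-numbered libraries had correlated deviations of 0.11 in the sorted cells and -0.02 in BV+SC+ cells and EpiSCs, and no label says that a number marks a pair. With the replicate block, 5 of the 10 genes were lower in BV+SC+ cells (4 together with the length offset, where 2 pathway list genes were higher), and EpiSC replicate 3 had no same-numbered BV+SC+ library. It changed no call of the 10 genes in the sorted cells. With no filter, 1 of the 10 genes, *Fgf4* with 2 counts against 0, was past 2-fold higher with SGC0946. Of the 6 genes lower in the 2iJi library, 4 were left with at least 10 counts in both libraries, a filter that removes *Etv4* and *Spry4*. With 2 or 3 libraries a group, and 1 a condition in the SGC0946 and medium comparisons, depth and replicates limit calls of low genes such as *Fgf4* at Day 3.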

Other observations

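The genes whose levels ran most alike were found by Pearson's r of log2(TPM + 1) over the 7 libraries of EpiSCs, BV+SC+ cells and the SGC0946 experiment, among 10597 genes that averaged 5 TPM or more. For *Dusp6* they were *Guk1* (r = 0.987), *Cdc34* (0.980), *Dync1h1* (0.980), *Etv1* (0.980) and *Gclm* (0.976). *Etv1* is an ETS factor of the same group as *Etv4* and *Etv5*. Over the same libraries *Dusp6* had r = 0.872 with *Etv4*, but -0.118 with *Etv5* and -0.342 with *Dusp4*. For *Etv4* they were *Pabpc1* (0.988), *Fxyd6* (0.983), *Tuba1c* (0.978), *Wipi1* (0.976) and *Mcam* (0.968). The 7 points share 1 gene list and differ in depth, and for *Etv4* they rest largely on the 1 low library named 2iJi, so these values are a description.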
